A study of Mus musculus with 9 samples.

Results

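Transcripts of 10 genes that mark blood vessel endothelium were followed through RNA-seq of medullary thymic epithelial cells (mTEC), a cell type that is not endothelial. The 10 genes were Pecam1, Cdh5, Cldn5, Esam and Emcn (adhesion and junctions), Kdr, Tek, Tie1 and Adgrl4 (receptors) and Thbd (anticoagulant surface), out of 30794 RefSeq entries counted in both pairs of libraries and 25537 in the actinomycin D series. The genes were chosen by their known role with the folds of both pairs in view, and for a gene with several entries the one with the highest summed normalised count in the Aire pair was selected. Their folds are therefore described and not tested.

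Endothelial cells line the vessels and are held together by junction proteins, among which VE-cadherin (Cdh5), claudin-5 (Cldn5), PECAM-1 (Pecam1) and ESAM (Esam) meet between neighbouring cells. VEGF acts on them through VEGFR2 (Kdr), and angiopoietins through TIE2 (Tek) with its partner TIE1 (Tie1). In the thymic medulla, vessels are the route by which T cell precursors enter and mature T cells leave, and their cells lie next to mTEC.

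Each of the 9 groups held 1 library, made from sorted thymic cells of mice on the B6 background, and the study's methods give their age as 4 weeks. The sort took CD45-negative, Ly51-negative cells, high (mTEChi) or low (mTEClo) in the MHC class II molecule I-A/E, and its description names no epithelial marker. In the Aire pair, mTEChi of Aire-/- mice (Aire-KO) stood beside mTEChi of WT mice, sorted from a pool of 4 thymi. Aire is the transcriptional regulator by which mature mTEC express genes of other tissues. In the Exp2 pair, mTEChi stood beside mTEClo of the same WT mice. The other 5 libraries held WT mTEChi kept for 0, 1.5, 3, 6 or 12 h with 1 uM actinomycin D, which stops transcription. Animals were pooled within a library, so no value below carries a spread between animals, and intervals are exact 95% intervals from the reads that cover counting error only.

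Summed over RefSeq entries, the libraries of both pairs and the 0 h library had 74161592 to 195444567 counted reads. The treated libraries had 21124165 at 1.5 h down to 1746825 at 12 h. In these totals 1 read can count for several isoforms. Neither column of the Aire pair is named after a sample, and they were told apart by how the study's own code uses their ratio. Aire itself, the targeted gene, had 661 CPM (each library's reads scaled to a common total) in the library labelled Aire-KO, against 259 CPM in the WT library, and a count over the whole gene cannot show whether its deleted part was transcribed. It therefore does not check the label, and every direction in the Aire pair rests on this assignment. Of all entries, 21.1% were at least 3-fold lower and 2.03% at least 3-fold higher in the library labelled Aire-KO. These values were not used to assign the columns, and whether they come from loss of Aire was not tested. Aire had 444 CPM in mTEChi and 14.4 CPM in mTEClo. The epithelial gene Epcam had 311 to 544 CPM in the 5 untreated libraries, and Ptprc, which encodes CD45, was not at 0 in any, with 1.87 CPM in the library labelled Aire-KO against 6.72 CPM in the WT library, 6.71 in mTEChi against 13.3 in mTEClo, and 14.2 CPM at 0 h.

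Start-site sequence was available for 6 of the 10 genes (Adgrl4, Cldn5, Emcn, Kdr, Tek and Tie1), as RefSeq windows of build GRCm38.p6 that run from 250 bases before to 50 after the start. They are shown because endothelial genes are known to be read by ETS factors, whose core is GGAA. One window is printed per gene, the one nearest to the start, in the direction of the gene and with the ETS-type 6-letter match in capitals (Emcn and Tek each held a further match upstream).
Adgrl4: caaaagaggCCGGAAagtgacagg
Emcn: aaaaagaagTTCCTGtaaggggct
Kdr: ccggcacagTTCCGGggtagtggg
Tek: cccctattgTTCCTGaaaatgctg
Tie1: ttcctccctTTCCTGtctcccgtg
The Adgrl4 match, CCGGAA, began 25 bases before the start (window chr3:151437848-151437871, plus strand). In the other genes the match lay on the opposite strand, as TTCCGG 153 bases before the start of Kdr (chr5:75978594-75978617, minus strand) and as TTCCTG 67 bases before that of Emcn (chr3:137341002-137341025, plus strand), 59 before that of Tek (chr4:94739221-94739244, plus strand) and 209 before that of Tie1 (chr4:118490044-118490067, minus strand). Searched on both strands, CCGGAA was in 2 of the 6 promoters (Adgrl4 and Kdr) and in 14.9% of all 32851 promoters. CAGGAA was in 3 of 6 (Emcn, Tek and Tie1) and in 30.6% of all, and either form was in 5 of 6 and in 41.4% of all. GATAA, the letters read by GATA factors, was in 2 of 6 (Emcn and Tek) and in 25.4% of all. Cldn5 held neither ETS form in this window. The ETS forms share GGAA, no site can match both, and GATAA is part of neither. Whether these matches bear on the folds was not tested.

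Of the 10 genes, 5 encode proteins of adhesion and junctions, and all 5 had their highest CPM in mTEClo. Pecam1 (chr11:106515531-106611942, minus strand on build mm9, which also serves for the genes below) encodes CD31, a junction protein that platelets and leukocytes also carry. It had 5.44 CPM in the library labelled Aire-KO against 17.1 CPM in the WT library, 8.91 CPM in mTEChi against 111 CPM in mTEClo, and 4.80 CPM at 0 h. Its mTEClo level thus stood above the other 4 by at least 6.50-fold, and its Aire-KO level lay inside the range of the 3 untreated WT mTEChi libraries (WT of the Aire pair, mTEChi of the Exp2 pair and 0 h). Cdh5 (chr8:106625525-106668402, plus strand), the cadherin of endothelial adherens junctions, had 0.566 CPM in the library labelled Aire-KO against 7.95 CPM in the WT library, 3.76 CPM in mTEChi against 44.6 CPM in mTEClo, and 4.21 CPM at 0 h. Here the Aire-KO library was below every other, by at least 6.64-fold.

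Cldn5 (chr16:18776940-18778353, plus strand), a tight junction protein with a single exon, had 0.392 CPM in the library labelled Aire-KO against 4.15 CPM in the WT library, 1.80 CPM in mTEChi against 11.6 CPM in mTEClo, and 0.830 CPM at 0 h. Its order of libraries was that of Cdh5 except that 0 h lay under mTEChi. Emcn (chr3:137004031-137095149, plus strand), endomucin, a sialomucin of venous and capillary endothelium, had 0.0210 CPM in the library labelled Aire-KO against 0.671 CPM in the WT library, 0.312 CPM in mTEChi against 8.76 CPM in mTEClo, and 0.0655 CPM at 0 h. These are 3, 70, 61, 650 and 6 reads in the same order, so the Aire-KO value, with an interval of 0.00433 to 0.0613 CPM, and the 0 h value, with 0.0240 to 0.143 CPM, overlap. Esam (chr9:37335663-37345904, plus strand), an immunoglobulin-type adhesion molecule that platelets also carry, had 6.51 CPM in the library labelled Aire-KO against 8.97 CPM in the WT library, 10.6 CPM in mTEChi against 25.3 CPM in mTEClo, and 8.57 CPM at 0 h. Its 4 mTEChi libraries lay close together, and the 3 of WT mice spanned only 1.23-fold.

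Among the receptors, Kdr (chr5:76328852-76374483, minus strand), the main VEGF receptor, had 0.119 CPM in the library labelled Aire-KO against 2.01 CPM in the WT library, 0.993 CPM in mTEChi against 9.48 CPM in mTEClo, and 0.906 CPM at 0 h. Tie1 (chr4:118143796-118162666, minus strand), the orphan partner of TIE2, had 0.217 CPM in the library labelled Aire-KO against 2.73 CPM in the WT library, 1.88 CPM in mTEChi against 23.9 CPM in mTEClo, and 2.60 CPM at 0 h. The 3 WT mTEChi libraries spanned 2.22-fold for Kdr and 1.45-fold for Tie1, with Aire-KO below and mTEClo above all of them. Adgrl4 (chr3:151100851-151208050, plus strand), an adhesion G protein-coupled receptor of endothelium named Eltd1 in the mm9 annotation, had 0.0280 CPM in the library labelled Aire-KO against 1.25 CPM in the WT library, 0.563 CPM in mTEChi against 17.5 CPM in mTEClo, and 0.502 CPM at 0 h. The Aire-KO value rests on 4 reads of 3911 for the 10 genes. Tek (chr4:94405980-94541667, plus strand), the angiopoietin receptor, had 12.1 CPM in the library labelled Aire-KO against 18.5 CPM in the WT library, 10.8 CPM in mTEChi against 25.3 CPM in mTEClo, and 15.2 CPM at 0 h. Tek was the flattest of the 10 genes, its mTEClo level standing only 1.37-fold above the highest WT mTEChi library.

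Thbd (chr2:148230207-148233924, minus strand) encodes thrombomodulin, the surface protein by which endothelium turns thrombin towards anticoagulation, and has a single exon. It had 1.98 CPM in the library labelled Aire-KO against 4.10 CPM in the WT library, 1.20 CPM in mTEChi against 50.9 CPM in mTEClo, and 3.43 CPM at 0 h. As for Pecam1 and Tek, the Aire-KO level lay inside the range of the 3 untreated WT mTEChi libraries, while its mTEClo level stood 12.4-fold above the highest of them.

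**Figure D1:**
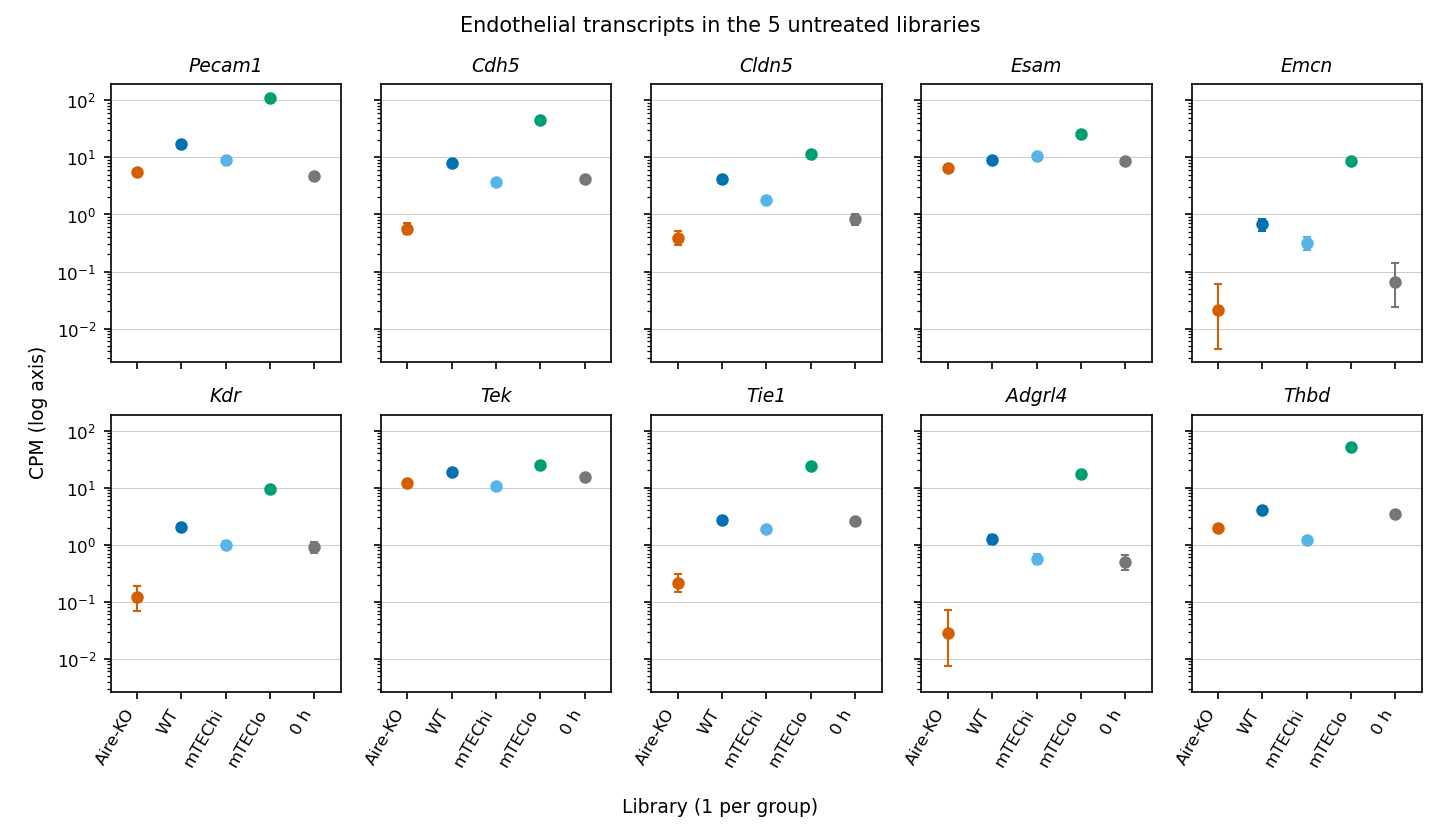
CPM (log axis) of each of the 10 endothelial transcripts in the 5 untreated libraries, 1 point per library with its exact 95% counting interval: the library labelled Aire-KO and WT of the Aire pair, mTEChi and mTEClo of the Exp2 pair, and 0 h. In all 10 panels mTEClo is highest, and in 7 of 10 Aire-KO lies under all 3 WT mTEChi libraries. Over the 23263 entries compared, mTEClo was above all 3 for 23.8% and Aire-KO below all 3 for 46.9%.

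Set per kilobase of entry, so that genes can be compared, Pecam1 led in mTEClo with 33.7 CPM per kb, ahead of Thbd with 13.7 and Esam with 13.6, and Kdr was last with 1.74. In the library labelled Aire-KO the order was led by Esam at 3.51 CPM per kb and Tek at 2.59, and ended with Emcn at 0.0144 and Adgrl4 at 0.00681. In WT of the same pair, Pecam1 came first at 5.19 CPM per kb, followed by Esam at 4.84 and Tek at 3.99. The order of neighbours such as Thbd and Esam in mTEClo has no replicate behind it. Among all entries of a library, the median gene of the 10 lay above 31.1% of entries in the library labelled Aire-KO and above 41.7% in its WT partner, above 31.7% in mTEChi and above 72.1% in mTEClo, and above 30.1% at 0 h, by CPM.

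In the Aire pair, 6 of the 10 genes were at least 3-fold lower in the library labelled Aire-KO than in WT and 0 were at least 3-fold higher, by normalised counts, that is reads divided by each library's size factor. The limit of 3-fold follows the study. Over the 26761 entries that reached 10 normalised counts in the pair, 21.1% were at least 3-fold lower and 2.03% at least 3-fold higher, and the genes were picked with these folds known. The median fold of the 10 was 0.101, beside 0.978 over all entries. The 6 were the junction genes Cdh5, 12.0-fold lower (9.52 to 15.2), and Cldn5, 9.04-fold lower (6.83 to 12.2), the mucin Emcn, 27.3-fold lower (8.96 to 135), and 3 receptors. Kdr was 14.4-fold lower (8.81 to 25.3), Tie1 10.7-fold lower (7.41 to 16.1) and Adgrl4 38.0-fold lower (14.5 to 142). The wide limits of Emcn and Adgrl4 come with their 3 and 4 reads. Pecam1 was 2.69-fold lower (2.47 to 2.93), just outside the limit, while Esam, Tek and Thbd stayed within 2-fold, at 1.18-fold, 1.31-fold and 1.77-fold lower. Scaled to total reads instead, the median log2 fold of all entries was -0.26 rather than -0.03, and Pecam1 passed the limit, at 3.15-fold lower.

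The count and the sizes depended on which WT library was set beside the library labelled Aire-KO. With all libraries scaled to equal total reads, 7 of 10 genes were at least 3-fold lower in it than in its WT partner (23.4% of all entries), 6 than in mTEChi of the Exp2 pair (21.4%) and 5 than in the 0 h library (26.2%). The total of 0 h was summed over 25537 entries and those of the pairs over 30794, so its CPM stand on a smaller set. The direction turned for 3 genes: Tek and Thbd had 1.12 and 1.65 times the CPM of Exp2 mTEChi, and Pecam1 1.13 times that of 0 h. The WT library of the Aire pair was the highest of the 3 WT mTEChi libraries for 9 of the 10 genes (Esam being the exception), and the 3 libraries spanned between 1.23-fold (Esam) and 10.2-fold (Emcn), with a median span of 2.35-fold. Aire-KO lay below all 3 for 7 of the 10 genes (not for Pecam1, Tek and Thbd), and for 46.9% of the 23263 entries compared. The gap to the lowest WT library was 18.0-fold for Adgrl4, 8.66-fold for Tie1, 7.62-fold for Kdr and 6.64-fold for Cdh5, and 1.32-fold for Esam.

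In the Exp2 pair, 8 of the 10 genes were at least 3-fold lower in mTEChi than in mTEClo and 0 were at least 3-fold higher. Over all 29212 entries tested, 12.8% were at least 3-fold lower and 11.8% at least 3-fold higher, and this contrast too was known when the genes were picked. The median fold of the 10 was 0.0781, beside 1.01 over all entries. Thbd was furthest apart, 44.5-fold lower (39.0 to 51.0) in mTEChi, followed by Adgrl4, 32.7-fold lower (26.9 to 40.2), and Emcn, 29.5-fold lower (22.7 to 39.0). Tie1, Pecam1 and Cdh5 lay close together at 13.4-fold, 13.1-fold and 12.5-fold lower, Kdr at 10.03-fold and Cldn5 at 6.74-fold. Esam and Tek stayed inside the limit at 2.51-fold and 2.46-fold lower.

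**Figure D2:**
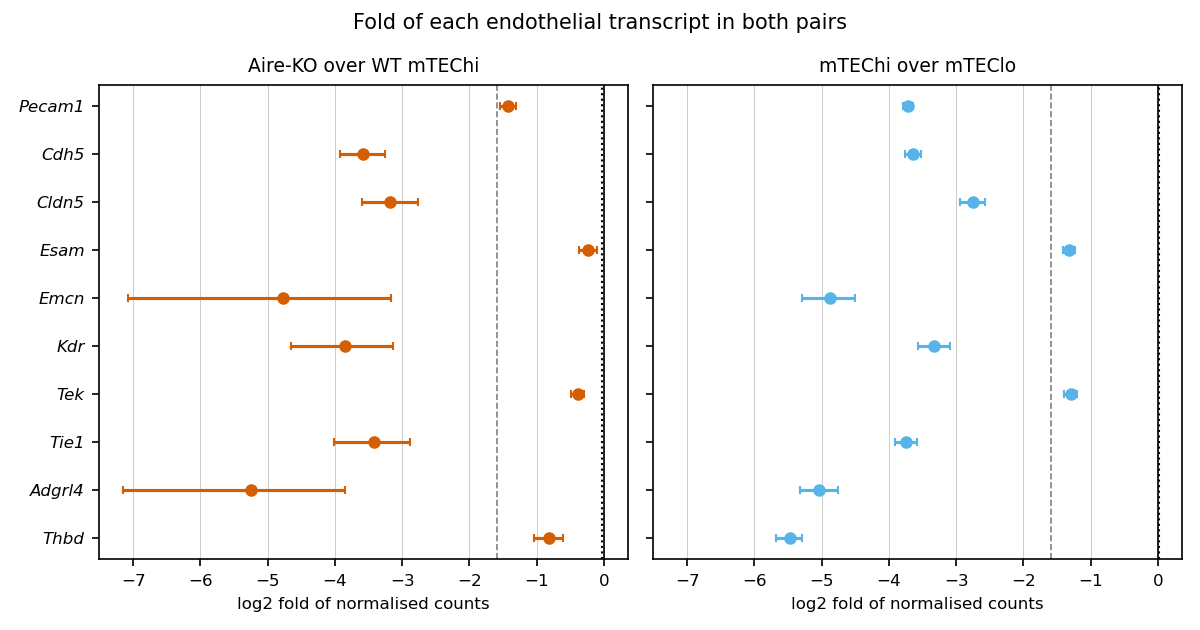
Log2 fold of normalised counts of each gene, the library labelled Aire-KO over WT (left) and mTEChi over mTEClo (right), with exact 95% counting intervals. The dashed line marks 3-fold lower, and the dotted line the median of all entries (folds of 0.978 and 1.01). Every gene lies left of 0 in both panels, with Esam and Tek nearest to it in each.

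With mTEClo as a single library, its distance was set beside the same 3 WT mTEChi libraries. It stood above all 3 for all 10 genes, and for 23.8% of the 23263 entries. The gap to the highest WT mTEChi library was 14.1-fold for Adgrl4, 13.1-fold for Emcn, 12.4-fold for Thbd and 8.76-fold for Tie1, down to 2.39-fold for Esam and 1.37-fold for Tek. With bulk RNA, fewer endothelial cells in a library and less of these transcripts per cell cannot be told apart.

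All 10 genes were read in each of the 5 untreated libraries, the fewest reads being 3, for Emcn in the library labelled Aire-KO. Summed over the 10 genes, reads made up 27.3 CPM of the library labelled Aire-KO against 67.5 CPM of its WT partner, 40.8 CPM of mTEChi against 329 CPM of mTEClo, and 41.1 CPM of 0 h. Of these, Tek and Esam held 68.0% in the library labelled Aire-KO and 40.8% in WT, 52.4% in mTEChi against 15.4% in mTEClo, and 57.8% at 0 h. The other 8 genes together came to 8.76 CPM in the library labelled Aire-KO against 40.0 CPM in WT, 19.4 CPM in mTEChi against 278 CPM in mTEClo, and 17.3 CPM at 0 h. Tek and Esam themselves summed to 18.6 CPM in the library labelled Aire-KO against 27.5 CPM in WT, 21.4 CPM in mTEChi against 50.6 CPM in mTEClo, and 23.8 CPM at 0 h. The pair thus varied far less than the other 8, and its share was larger the lower the other 8 were, in all 5 libraries.

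**Figure D3:**
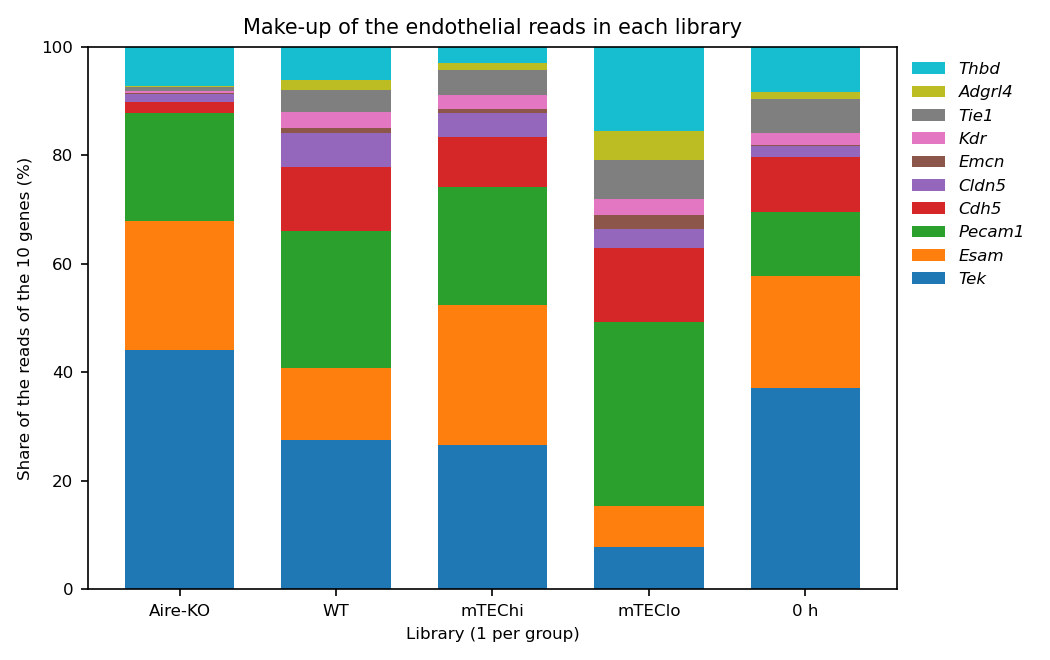
Share (%) of the summed reads of the 10 genes that each gene holds in the 5 untreated libraries, stacked to 100. Tek and Esam, at the base of each bar, hold the largest share, 68.0%, in the library labelled Aire-KO and the smallest, 15.4%, in mTEClo.

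Read against Cdh5, which is held to be specific to endothelium, the genes fell apart into those that kept its ratio and those that did not. Kdr had 0.210 reads per Cdh5 read in the library labelled Aire-KO (0.117 to 0.357) and 0.253 in WT (0.217 to 0.295), 0.264 in mTEChi against 0.212 in mTEClo, and 0.215 at 0 h, a span of 1.26-fold in which the intervals of the Aire pair overlap. Tie1 spanned 1.79-fold, with 0.383 in the library labelled Aire-KO. Its lowest ratio was 0.344 in WT (0.299 to 0.394) and its highest 0.617 at 0 h (0.522 to 0.727), so these intervals do not overlap. Tek spanned 37.6-fold, with 21.3 in the library labelled Aire-KO (17.1 to 27.0) and 2.33 in WT, and 2.87 in mTEChi against 0.567 in mTEClo. Esam spanned 20.3-fold, Emcn 12.6-fold, Thbd 10.9-fold, Pecam1 8.43-fold, Adgrl4 7.96-fold and Cldn5 3.51-fold. The lowest ratio of Emcn rests on 6 reads at 0 h, and that of Adgrl4 on 4 reads in the library labelled Aire-KO. In the Aire pair the intervals overlap for Tie1, Cldn5, Emcn and, barely, Adgrl4 as well. For Tek, Esam, Thbd, Pecam1 and Cldn5 the highest ratio was in the library labelled Aire-KO, where Cdh5 had 81 reads, and for Emcn and Adgrl4 it was in mTEClo.

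Genes of the same biology that are not among the 10 were counted by role in lists of 55 genes, all of which had at least 10 normalised counts in each pair. In the Aire pair 22 of the 55 were at least 3-fold lower in the library labelled Aire-KO and 0 at least 3-fold higher, with a median fold of 0.376, beside 21.1% and 2.03% of all entries. In the Exp2 pair 28 were at least 3-fold lower in mTEChi and 2 at least 3-fold higher, with a median fold of 0.317, beside 12.8% and 11.8% of all entries. The lists were drawn up with earlier results of these data known.

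Of 4 adhesion genes, 3 were at least 3-fold lower in the library labelled Aire-KO than in WT and all 4 in mTEChi than in mTEClo. Cd34, a sialomucin of vessels and of blood progenitors, had 5.25 CPM in the library labelled Aire-KO against 19.7 CPM in WT, and 17.7 CPM in mTEChi against 117 CPM in mTEClo. Podxl, a sialomucin of vessels and kidney podocytes, had fold 0.136 in the Aire pair and 0.221 in the Exp2 pair, and the junction molecule Jam2 0.406 and 0.0857.

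Receptors split, with 4 of 12 at least 3-fold lower in the library labelled Aire-KO and 5 of 12 in mTEChi. The 3 most abundant of them are not confined to vessels. Ephb4, an ephrin receptor of veins, had a fold of 1.81 in the Aire pair and 0.573 in the Exp2 pair, the VEGF and semaphorin co-receptor Nrp2 0.335 and 1.81, and S1pr1, a lipid receptor also of T cells, 0.884 and 1.77. Ligands had median folds of 1.01 in the Aire pair and 0.806 in the Exp2 pair, with 1 of 10 at least 3-fold lower in the library labelled Aire-KO, and 1 lower and 1 higher in mTEChi. Efnb2, an ephrin of arteries, had folds of 0.629 and 0.784, Vegfa, the ligand of Kdr, 0.850 and 0.663, and Dll4, a Notch ligand of arteries and of thymic epithelium, 0.370 and 3.46.

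Of 12 transcription factors, 5 were at least 3-fold lower in the library labelled Aire-KO and 7 in mTEChi. The 3 most abundant stayed within 2-fold in the Aire pair, with folds of 0.927 for the shear-induced factor Klf2, 0.668 for Ets1 and 0.975 for the Notch target Hey1, and in the Exp2 pair had 0.723, 0.264 and 0.280. Of 11 genes of haemostasis and the vessel surface, 6 were at least 3-fold lower in the library labelled Aire-KO, and 7 were lower and 1 higher in mTEChi. Plvap, which builds the diaphragms of fenestrated capillaries, had 1.75 CPM in the library labelled Aire-KO against 20.1 CPM in WT, and 19.98 CPM in mTEChi against 88.7 CPM in mTEClo. Vwf, von Willebrand factor, did not follow it, with 25.2 CPM in the library labelled Aire-KO against 25.4 CPM in WT, although it too was lower in mTEChi, with 23.7 CPM against 97.4 CPM in mTEClo. Ecscr, a chemotaxis regulator of endothelium, had folds of 0.345 and 0.560.

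Of 6 venule and lymphatic genes, 3 were at least 3-fold lower in the library labelled Aire-KO and 4 in mTEChi. P-selectin, Selp, which platelets also store, had 0.175 CPM in the library labelled Aire-KO against 2.90 CPM in WT, and 4.49 CPM in mTEChi against 68.4 CPM in mTEClo. Vcam1, which other stromal cells also make, stayed within 2-fold in both pairs, with folds of 1.17 and 1.53. The lymphatic factor Prox1 had 0.447 and 0.273.

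Markers of other cells moved beside the 10 genes, not in the same way in both pairs. Of all entries, 21.1% were at least 3-fold lower and 2.03% higher in the library labelled Aire-KO, and 12.8% and 11.8% in mTEChi. Platelet and megakaryocyte genes were at least 3-fold lower in the library labelled Aire-KO for 6 of 7 (median fold 0.151) and summed to 4.28 CPM there against 34.99 CPM in WT. In the Exp2 pair 0 of 7 were lower and 3 higher in mTEChi, with 24.7 CPM against 14.9 CPM in mTEClo. Gp1bb, a subunit of the platelet receptor for von Willebrand factor, had folds of 0.176 and 0.579, and the platelet chemokine Pf4 0.120 and 5.39. The platelet genes were thus low beside the 10 genes in the Aire pair but not in the Exp2 pair. Dendritic cell and macrophage genes were also low beside them in the Aire pair, with 6 of 11 lower and 0 higher in the library labelled Aire-KO (364 CPM against 685 CPM in WT, and Cd209a at 0 reads there, the 1 listed gene at 0 in any untreated library), but high in mTEChi, with 0 lower and 8 of 11 higher (584 CPM against 74.8 CPM in mTEClo). Their most abundant genes, lysozyme Lyz2 and the mannose receptor Mrc1, had folds of 0.687 and 0.493 in the Aire pair and 8.71 and 6.22 in the Exp2 pair.

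Fibroblast genes were low beside the 10 genes in the Exp2 pair but not in the Aire pair. In the Exp2 pair 7 of 9 were at least 3-fold lower in mTEChi, summing to 101 CPM against 987 CPM in mTEClo, while in the Aire pair 0 were lower and 1 higher in the library labelled Aire-KO, with 185 CPM against 113 CPM in WT. Decorin, Dcn, had folds of 2.49 in the Aire pair and 0.101 in the Exp2 pair, and periostin, Postn, 3.90 and 0.0416. Of 8 mural genes, those of the pericytes and smooth muscle that wrap vessels, 3 were lower in the library labelled Aire-KO and 3 in mTEChi, beside 21.1% and 12.8% of all entries. Their summed levels were 417 CPM in the library labelled Aire-KO against 419.8 CPM in WT, and 362 CPM in mTEChi against 590.0 CPM in mTEClo. The pericyte gene Rgs5 had folds of 1.06 and 1.75, and smooth muscle actin, Acta2, 1.45 and 0.128. The 3 mural genes lower in the library labelled Aire-KO were Kcnj8 (fold 0.109, on 6 against 47 reads), Abcc9 (0.122) and Notch3 (0.284). The median fold of the 8 in the Aire pair was 0.864 and the highest 2.01.

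In the Aire pair, 3 of 4 erythroid genes, 1 of 4 B cell genes and 1 of 10 thymocyte genes were lower in the library labelled Aire-KO (1 thymocyte gene was higher), and in the Exp2 pair 0, 0 and 2 were lower and 1 of each list higher in mTEChi. Of all entries, 21.1% were lower in the Aire pair and 12.8% in the Exp2 pair. With lists this short, 1 of 4 and 1 of 10 do not stand out from these shares. The erythroid genes summed to 16.8 CPM in the library labelled Aire-KO against 24.6 CPM in WT, and 24.3 CPM in mTEChi against 22.0 CPM in mTEClo. Thymocyte genes summed to 28.7 CPM in the library labelled Aire-KO against 45.1 CPM in WT, and 47.6 CPM in mTEChi against 50.9 CPM in mTEClo. Both lists thus differed by less than 2-fold in sum in each pair. B cell genes summed to 26.9 CPM in the library labelled Aire-KO against 32.9 CPM in WT, and 33.4 CPM in mTEChi against 16.3 CPM in mTEClo. Alas2, of haem synthesis, and Slc4a1, an anion exchanger of red cells, had folds of 1.02 and 0.0720 in the Aire pair. The T cell genes Cd4 and Lck had folds of 0.860 and 0.515 in the Aire pair, and the B cell receptor genes Cd79b and Cd79a 1.06 and 0.111. Of 10 mTEC genes 0 were lower and 0 higher by 3-fold in the library labelled Aire-KO, among them Cd74 and H2-Aa of antigen presentation, with folds of 1.59 and 1.41, while in the Exp2 pair 3 were lower and 5 higher in mTEChi, where Cd74 and H2-Aa had folds of 3.12 and 3.43. The part of any of these cells in the folds of the 10 genes was not tested.

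**Figure D4:**
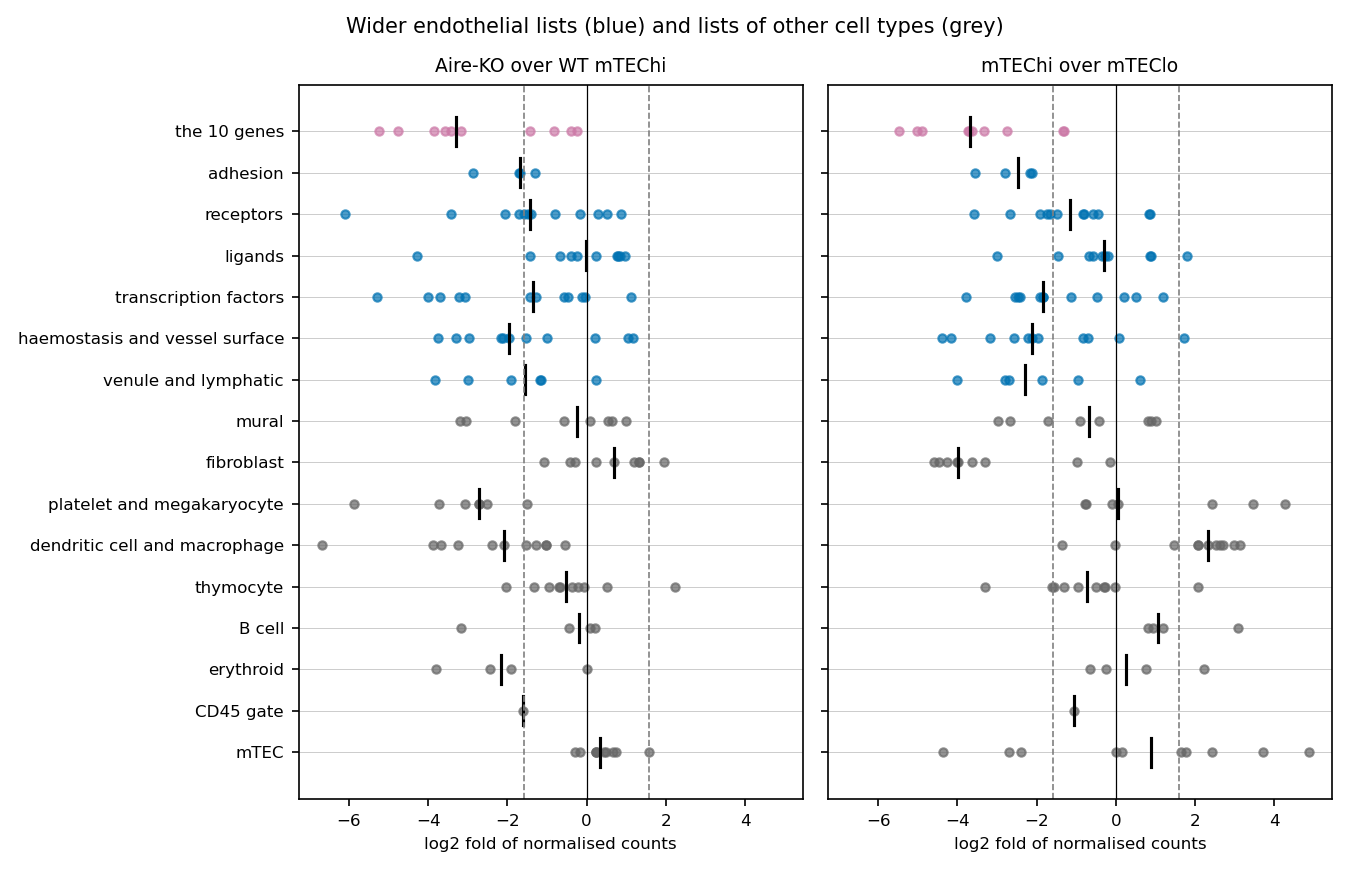
Log2 fold of normalised counts of every gene in each list (points, a count of 0 taken as 3 reads) with the list's median (bar), the library labelled Aire-KO over WT (left) and mTEChi over mTEClo (right). Dashed lines mark 3-fold, and the 10 genes (top row) have median folds of 0.101 and 0.0781, platelet genes 0.151 and 1.03, and fibroblast genes 1.61 and 0.0632.

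The genes whose levels over the 5 untreated libraries were most like the sum of the 10 were not in the endothelial lists. Likeness was the Euclidean distance of centred log2 CPM, with 0.5 reads added, among 16913 genes with at least 100 reads in their highest library. The nearest 10 were Ldlrad4, Pxdc1, Arhgef19, Cdh19, C1qtnf5, Adamts17, Trabd2b, Lhfp, Phf11a and Fibin, at distances of 0.278 to 0.552 log2 units. Ldlrad4 had 1.57 CPM in the library labelled Aire-KO against 3.48 CPM in WT, 2.66 CPM in mTEChi against 17.7 CPM in mTEClo, and 2.53 CPM at 0 h. In the untreated mTEChi libraries the sum is led by Tek, Pecam1 and Esam, and in mTEClo by Pecam1 (33.9%), Thbd (15.5%) and Cdh5 (13.6%). Single members lay further from the sum, Pecam1 at 1.13 with 1.12% of the 16913 genes nearer, and Esam at 1.46. Emcn and Adgrl4 lay at 3.96 and 4.04, with 79.9% and 81.2% of genes nearer.

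In the actinomycin D series, the 0 h library came from a TruSeq kit with paired-end reads, and the treated ones from SMARTer and Nextera kits with single-end reads, so any change from 0 h mixes kit with treatment and they cannot be told apart. Over 0, 1.5, 3, 6 and 12 h the 10 genes summed to 41.1, 39.1, 38.1, 52.5 and 22.3 CPM, on 3769, 827, 532, 593 and 39 reads. At 1.5 h their median log2 change of CPM was -0.11, beside -0.13 over all 23850 entries, and at 3 h -0.11 beside -0.18 (0.28 with the genes at 0 reads set to 3 reads). Of the 10 genes, 0, 2, 3 and 7 had no read after 1.5, 3, 6 and 12 h. Of all entries, 0.642%, 12.1%, 26.7% and 21.8% had none at these times. These shares did not follow depth, as the 6 h library had 11295960 counted reads and the 12 h library 1746825. The limits set on 0 reads below assume that depth alone governs detection, so they are not firm bounds. The cause of the shares was not tested.

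The genes did not share a course. Tek had 15.2, 10.8, 5.30 and 7.52 CPM at 0, 1.5, 3 and 6 h and 0 reads at 12 h, or 1.72 CPM if taken as 3 reads. On that limit its 12 h level was 8.87-fold below that at 0 h. The exact interval of the ratio, for counting error only, reached up to 0.139 of the 0 h level. Thbd had 3.43, 2.27, 2.65 and 0.177 CPM at 0, 1.5, 3 and 6 h, the last on 2 reads, and 0 reads at 12 h. Both thus had their highest CPM at 0 h. Cldn5 had 0.830, 0.663, 3.30 and 9.47 CPM at 0, 1.5, 3 and 6 h and then 0 reads at 12 h. Cdh5, its neighbour in the junction, had 4.21, 4.73, 4.66 and 11.1 CPM at 0, 1.5, 3 and 6 h and 0 reads at 12 h. These 2 junction genes had their highest CPM at 6 h. CPM is a share of each library's reads, so a higher CPM here does not show that the amount of a transcript rose. Tie1 had 2.60, 2.37, 7.24, 5.40 and 1.72 CPM at 0, 1.5, 3, 6 and 12 h, the last on 3 reads.

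Pecam1 and Esam were the only genes of the 10 with over 3 reads at 12 h, 18 each. Pecam1 had 4.80, 8.71, 8.03, 3.72 and 10.3 CPM at 0, 1.5, 3, 6 and 12 h, and Esam 8.57, 7.72, 5.73, 15.1 and 10.3 CPM. Neither kept 1 direction over time. Kdr had 0.906, 1.33 and 1.22 CPM at 0, 1.5 and 3 h and 0 reads at 6 and 12 h. Taken as 3 reads, or 0.266 CPM, its 6 h level was 3.41-fold below that at 0 h, if depth alone sets detection. The exact interval of this ratio, for counting error only, reached up to 0.369 of the 0 h level. Adgrl4 and Emcn had 46 and 6 reads at 0 h, 10 and 2 at 1.5 h and 0 after that. For Emcn the limit that 0 reads allow, 0.215 CPM at 3 h, is above its 0 h level, so no loss was detectable at this depth. The 12 h limit of 1.72 CPM is likewise above the 0 h level of Cldn5, Kdr and Adgrl4, and under that of Cdh5, Tek and Thbd.

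**Figure D5:**
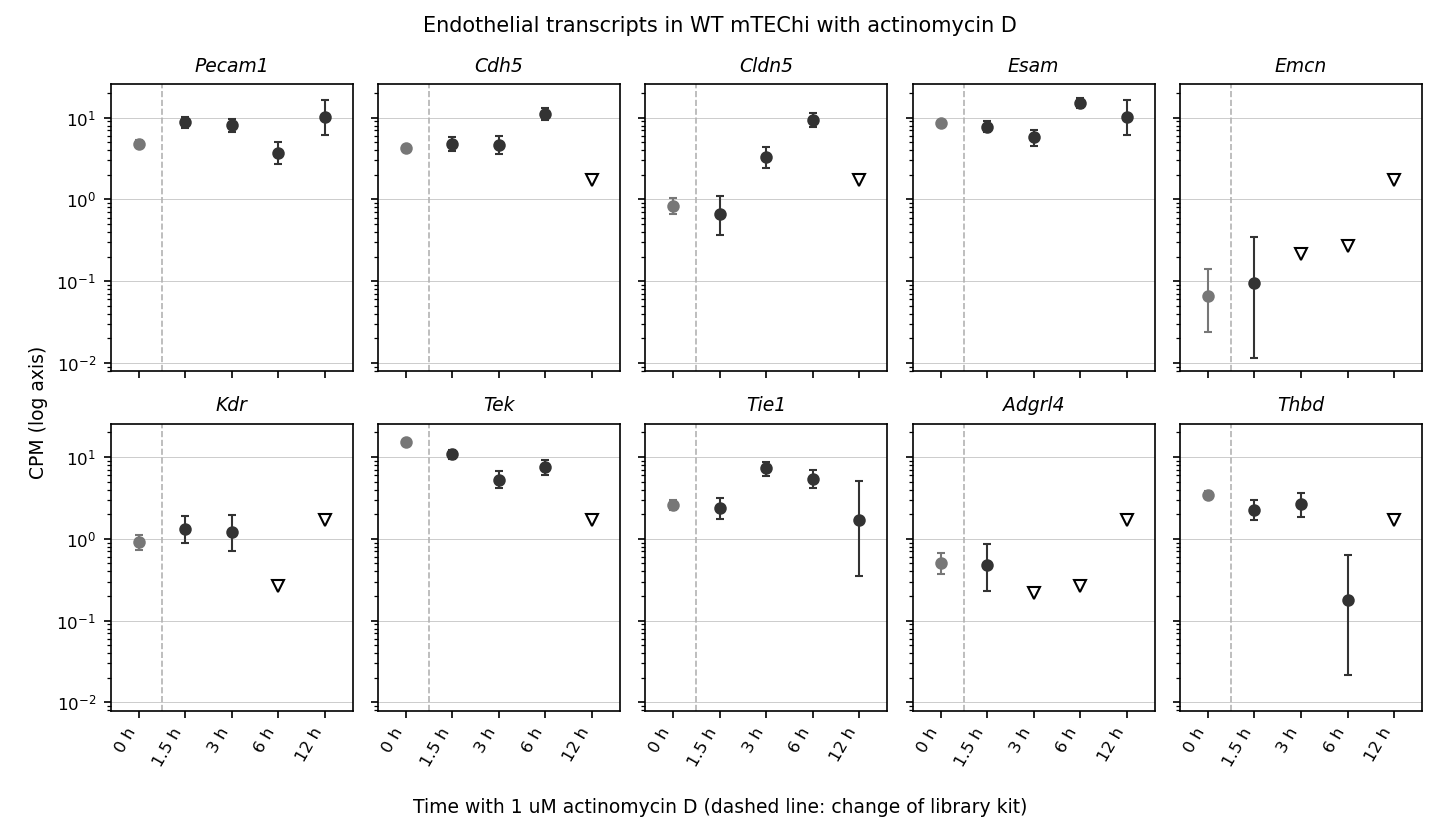
CPM (log axis) of each gene in WT mTEChi after 0, 1.5, 3, 6 and 12 h with 1 uM actinomycin D, 1 library per time with its exact 95% counting interval; open triangles are limits at 0 reads (3 reads), 1.72 CPM at 12 h. The dashed line marks the change of library kit after 0 h, and 7 of 10 genes have no read at 12 h, as have 21.8% of all entries.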

How the data were processed

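RNA-seq of 9 libraries of sorted mTEC was used, 1 per group. Per the study's methods and the labels, the authors removed reads failing the CASAVA filter, aligned with Bowtie 1.0.0 to mm9 and counted with bedtools, without strand, reads lying inside RefSeq exons, so that 1 read can count for several isoforms. The actinomycin D files hold deposited counts. For the pairs, the deposited signal is the count divided by the library's DESeq size factor, made by the authors. All its values were whole multiples of 1 step within 0.1, so reads were recovered (100%). Their columns of folds and p-values, from 1 library against 1, and 2 further per-sample columns were not used.

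CPM used the total of each library's counts over its own entries, 30794 in the pairs and 25537 in the actinomycin D series with 0 h. Folds used normalised counts for entries with at least 10 over both libraries, a count of 0 being taken as 3 reads. Log2 changes in the time series used 0.5 added reads. Fold intervals are exact, at 95%. They were tried on simulated Poisson counts only, the model they are built on, so spread between libraries was not part of that check. Symbols came from the RefSeq table of GRCm38.p6 (98.1% and 97.9% of entries matched), positions from gencode on mm9. Python 3.11.15 (numpy 2.4.6, pandas 2.3.3, scipy 1.17.1, matplotlib 3.10.9) and, for TMM factors, edgeR 4.0.16 in R 4.3.3 were used. Pecam1 and Emcn have 2 entries each.

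The members and lists were chosen with earlier results of these data known. The text names all 10 members, the 3 most abundant genes of each role list, the 2 most abundant of each list of other cells and the 10 nearest genes. Cd209a, Epcam, Kcnj8, Abcc9, Notch3 and the genes of the closing observations were named after their values were seen. Alternatives were equal total reads, TMM factors, a 2-fold limit, the entry of the lowest mean, no minimum, other untreated WT mTEChi libraries, other added reads and 1.5 h as the start of the time series. Intervals omit PCR duplication, as reads are not independent molecules.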

Additional observations from a re-analysis of the deposited data

How the results depend on the processing

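All 10 genes kept their direction in both pairs with equal total reads, with TMM factors and with the entry of the lowest mean. The number at least 3-fold lower in the library labelled Aire-KO was 6 (21.1% of all entries), and 7 with equal totals (23.4%) or a 2-fold limit (27.3%), 6 with the Exp2 mTEChi library as WT (21.4%) and 5 with the 0 h library (26.2%). In mTEChi against mTEClo it was 8 (12.8%), and 10 with a 2-fold limit (20.2%), 7 with the WT library of the Aire pair as mTEChi (13.9%) and 8 with the 0 h library (13.1%). The median log2 fold of the 10 in the Aire pair, -3.30, moved to -2.47 with Exp2 mTEChi as WT and to -1.36 with 0 h, while that of all entries, -0.03, moved to -0.27 and -0.62. In the Exp2 pair the median of the 10, -3.68, moved to -2.59 with the WT library of the Aire pair, beside 0.02 for all entries. Log2 folds that reversed were those of Tek, 0.16, and Thbd, 0.72, with Exp2 mTEChi as WT, and of Pecam1, 0.18, with 0 h as WT. Equal totals put the median of all entries in the Aire pair at -0.26. The median change of the 10 at 1.5 h of actinomycin D, -0.11, turned to 0.010 with TMM factors, while that of all entries, -0.13, moved to -0.01. The cause was not tested. The medians at 6 and 12 h are not given, since 3 and 7 of the genes had 0 reads. No paired analysis was possible because each group has 1 library. No library could be left out for the same reason. In the time series, 0 reads taken as 3 stand for 1.72 CPM at 12 h.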

Other observations

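A few genes of the wider endothelial lists, not among the 10, were singled out after their values were seen. Robo4, a guidance receptor of endothelium, had 0.0350 CPM in the library labelled Aire-KO against 2.81 CPM in WT, the lowest fold of the 55 in the Aire pair at 0.0146 (5 and 293 reads), while it had 4.04 CPM in mTEChi against 12.1 CPM in mTEClo. Angpt2, the angiopoietin that opposes Tek signalling, had 0.315 CPM in the library labelled Aire-KO against 7.24 CPM in WT, but 13.5 CPM in mTEChi against 6.98 CPM in mTEClo, so that it was low with the 10 genes in the first pair and not in the second. Erg, an ETS factor of endothelium, had 13.4 CPM in the library labelled Aire-KO against 7.17 CPM in WT and 5.76 CPM in mTEChi against 4.76 CPM in mTEClo. Fli1, another ETS factor, had folds of 0.107 in the Aire pair, on 7 reads in the library labelled Aire-KO, and 0.0730 in the Exp2 pair. Mmrn2, a matrix protein of vessels, was higher in the library labelled Aire-KO, with 7.34 CPM against 3.81 CPM in WT, and lower in mTEChi, with 3.96 CPM against 34.1 CPM in mTEClo. None of these differences was tested, each resting on 1 library against 1.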
